A study of Drosophila melanogaster with 2 samples.

Results

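The genes described are lab, pb, Dfd, Scr, ftz and Antp of the Antennapedia complex and Ubx, abd-A and Abd-B of the bithorax complex, on chromosome arm 3R of Drosophila melanogaster. Binding of CBP at these 9 genes was read from a list of 1347 peaks made by chromatin immunoprecipitation and sequencing (ChIP-seq). The peaks were chosen by position, as those overlapping 3R from 2480000 to 2840000 (Antennapedia complex) or from 12480000 to 12810000 (bithorax complex) on the genome build BDGP5. This gave 48 peaks, 28 in the Antennapedia and 20 in the bithorax complex, or 3.56% of the list and 13.3% of the 361 peaks on 3R. The data comprised 1 sample of untreated embryos, collected 0 to 4 h after egg laying and precipitated with an antibody against CBP, and 1 input sample, the chromatin before precipitation, whose reads were not analysed here. In general terms, the series' design names 2 replicates per ChIP-seq data set, and the labels used here list 1. The labels name iso1 (y; bw cn sp) or transgenic flies without saying which were used. Whole embryos were taken, so the list does not tell in which cells or segments CBP was bound. Since a single peak list was analysed, replicate error cannot be given, no difference was tested, and read depth is unknown. The binomial intervals given for shares express counting error alone and treat peaks as independent, which neighbouring peaks are not.

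Hox genes encode homeodomain transcription factors that give each body segment its identity, and along the chromosome they lie in roughly the order in which they act from head to tail. ftz sits among them but is a pair-rule gene, transcribed in stripes in the blastoderm and needed to form alternate segments. CBP, the product of nejire, is a co-activator that acetylates histones, among them histone H3 at a lysine that Polycomb complexes methylate, and it is found at active enhancers and promoters. The collection spans the onset of zygotic transcription, the stripes of the pair-rule genes and the first Hox transcription, and both complexes are known for long regulatory regions in introns and between genes.

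The highest CBP score on 3R lay at the promoter of ftz. A score here is the value the authors' peak caller MACS gave to a peak; its scale is not stated, the lowest in the list is 50.02 and the median 68.22. The peak, from 2689374 to 2690388, was 1015 bp wide with a score of 345.18, rank 13 of 1347 in the list and rank 1 on 3R. ftz spans 2690046 to 2691949 on the forward strand, so the peak reached from 672 bp upstream of its 5′ end to 342 bp into the gene. A further peak lay upstream of ftz from 2684548 to 2685266, 4780 bp before its 5′ end, with a score of 153.77 (rank 104), and overlapped the annotated non-coding gene lncRNA:CR45900. Behind ftz, the peak from 2693621 to 2694356 scored 61.38, below the median of the list. These 3 peaks formed a group of 9.81 kb in which the score fell off on both sides of the promoter. ftz is also the shortest of the genes described, with a span of 1.90 kb. The other genes spanned 10.6 to 102 kb.

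**Figure D1:**
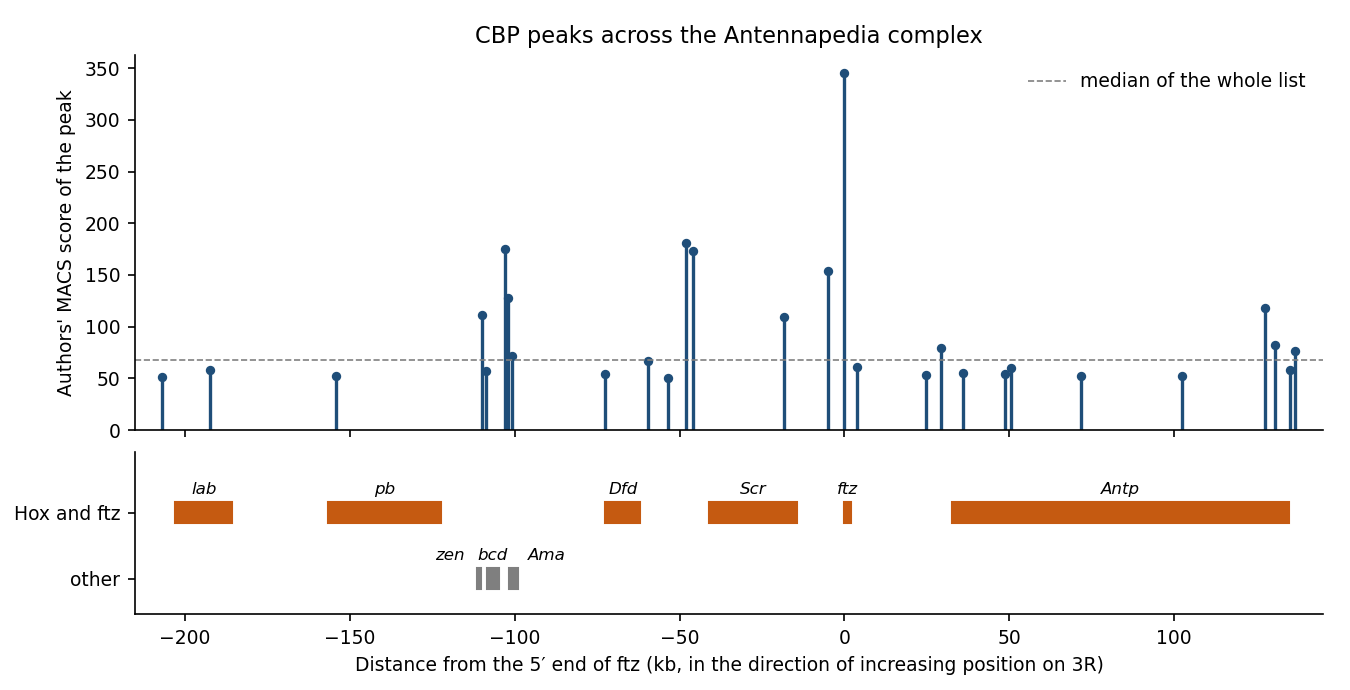
Upper panel: the 28 CBP peaks of the Antennapedia complex, each as a line at its centre whose height is the authors' MACS score, with the median of the whole list (68.22) dashed. Lower panel: spans of the Hox genes and ftz (orange) and of zen, bcd and Ama (grey). The horizontal axis is the distance from the 5′ end of ftz in kb. The tallest line, 345.18, stands at ftz.

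The head genes of the Antennapedia complex carried 1 peak each within their spans, and 3 of those 4 peaks scored below the median of the list. lab, the gene nearest the end of the complex and active in the intercalary segment of the head, held a peak scoring 58.32, from 2497343 to 2497793. Its edge lay 6519 bp inside the gene from the 5′ end. pb, required for the adult mouthparts, held a peak scoring 52.26, from 2535376 to 2536049. That peak lay toward its 3′ end, and the peak nearest the 5′ end of pb was 11642 bp upstream. Dfd, which specifies the mandibular and maxillary segments, had a peak across its 5′ end, from 2617191 to 2617633, with a score of 54.33. This peak reached from 367 bp upstream to 75 bp downstream of the 5′ end and ranked 1119 of 1347. Dfd was placed by a constant difference between genome builds. At the genes checked, the largest mismatch, 602 bp, was at the 3′ end of Antp. The 5′ ends of ftz, Antp, abd-A and Abd-B were equal, and that of Ubx differed by -1 bp. Dfd itself was not among the genes checked, so the 75 bp overlap with the span and the place at the 5′ end remain uncertain. Scr, which acts in the labial segment and first thoracic segment, held a peak scoring 109.75, from 2671144 to 2672021, at 3682 bp downstream of its outermost annotated 5′ end. The scores within the head genes thus ran from 52.26 at pb to 109.75 at Scr, and only the peak of Dfd lay at a 5′ end.

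The strongest peaks among the head genes stood between the genes. The stretch of 20.7 kb between Dfd and Scr held 4 peaks with scores of 50.75, 67.10, 180.86 and 173.15. The 2 stronger ones, from 2641765 to 2642470 and from 2643619 to 2644406, were ranks 73 and 80 of the list and were among the 5 highest scores of the complex. The first of them overlapped the right end of lncRNA:CR42651, an annotated non-coding gene whose span also contains the microRNA gene mir-10. The stretch of 49.8 kb between pb and Dfd held 5 peaks with a median score of 111.48. These lay at or near genes of the complex that have no homeotic function. zen, a homeobox gene for dorsal tissues, had a peak across its right end from 2579427 to 2580859 with a score of 111.48. bcd, the maternal gene of the anterior gradient, had a peak of 57.19 across its left end, and the highest score of this stretch, 175.32, lay 1498 bp beyond its right end and 814 bp before Ama, from 2586686 to 2587501. Ama, which encodes an immunoglobulin-domain protein, held peaks with scores of 128.03 and 71.96, and zen2 held none. These genes were placed by the same constant difference as Dfd and were not checked, so the overlaps of peaks with their ends are uncertain too. The peaks scoring 175.32, 128.03 and 71.96 each overlapped the annotated non-coding gene lncRNA:CR45593. In contrast, the 29.2 kb between lab and pb, which contain a row of cuticle protein genes, held 0 peaks.

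Antp, which specifies thoracic segments and above all the second, held 8 peaks over its span of 102 kb (2722577 to 2824950), more than any other protein-coding gene of 3R. With peaks below the list median left out, Antp held 2, as did Ubx, and 5 protein-coding genes of 3R held more. Most peaks of Antp were weak: their scores ran from 51.85 to 117.67 with a median of 56.305. Antp is transcribed on the reverse strand, and its outermost 5′ end was covered by a peak scoring 57.68, from 2824654 to 2825424. The 2 strongest peaks of Antp lay just inside this end. They ran from 2817372 to 2818052 with a score of 117.67, 6898 bp into the gene, and from 2820374 to 2820976 with a score of 82.06, 3974 bp into it. Together with a peak of 76.33 upstream, these made a group of 4 peaks over 9.81 kb around the 5′ end. The other 5 peaks of Antp were spread over the remainder of the gene. They scored 54.93 (2725909 to 2726302), 53.94 (2738493 to 2739048), 59.73 (2740099 to 2740705), 51.85 (2761596 to 2762037) and 52.27 (2792204 to 2792552), close to the lower limit of the list. Of these, 4 also lay in CG46458, a protein-coding gene annotated over the same stretch, so they cannot be assigned to Antp alone.

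In the bithorax complex the strongest CBP peak lay inside Ubx, far from its promoter. Ubx, which acts in the third thoracic and first abdominal segments, spans 12482345 to 12560149 on the reverse strand and held 6 peaks. The peak from 12526435 to 12527540 scored 262.07, rank 26 of the list and rank 4 on 3R, and lay 32609 bp into the gene from its 5′ end. A second peak, from 12528356 to 12529046, followed 815 bp away with a score of 104.7. The other 4 scored 65.69 (12487452 to 12487868), 53.06 (12504429 to 12504791), 55.67 (12505069 to 12505522) and 64.47 (12544160 to 12545261). No listed peak lay at the 5′ end of Ubx: the nearest was 10413 bp upstream, with a score of 60.3. The pair in the middle of Ubx therefore stood well above the other 4 peaks of the gene, which all scored below the median of the list.

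The stretch of 72.8 kb between Ubx and abd-A, which carries the non-coding gene lncRNA:bxd and regulatory sequence of Ubx, held 4 peaks. Of these, 3 scored 51.33 to 60.3, and the peak from 12598692 to 12599699, across the right end of lncRNA:bxd, scored 123.83. abd-A, which acts in the anterior abdominal segments, held 2 peaks, from 12637368 to 12638173 with a score of 110.72 and from 12647834 to 12648622 with a score of 87.43. At the 5′ end of abd-A (span 12632936 to 12655771, reverse strand) a peak of 310 bp, from 12655783 to 12656092, began 12 bp upstream and scored 74.1. Both gene-internal peaks of abd-A and this promoter peak were above the median of the list.

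Between abd-A and Abd-B, 97.2 kb known to hold regulatory domains of the abdominal segments, 7 peaks were listed, and each scored above the median of the list. Apart from the promoter peak of abd-A, their scores were 94.99, 87.2, 126.96, 108.06, 111.59 and 80.53. All 6 lay within lncRNA:iab8, a non-coding gene annotated across most of this stretch. The 2 highest ran from 12707983 to 12708678 (126.96) and from 12725152 to 12726028 (111.59). Beyond the last of them, from 12728063 to 12774200, no peak was listed over 46.1 kb, the longest gap of the complex. Abd-B, which acts in the posterior abdomen, spans 12752934 to 12797958 and held 1 peak, from 12774201 to 12774622 with a score of 90.76. It lay 23336 bp into the gene from the outermost 5′ end, and no peak was listed at that end.

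**Figure D2:**
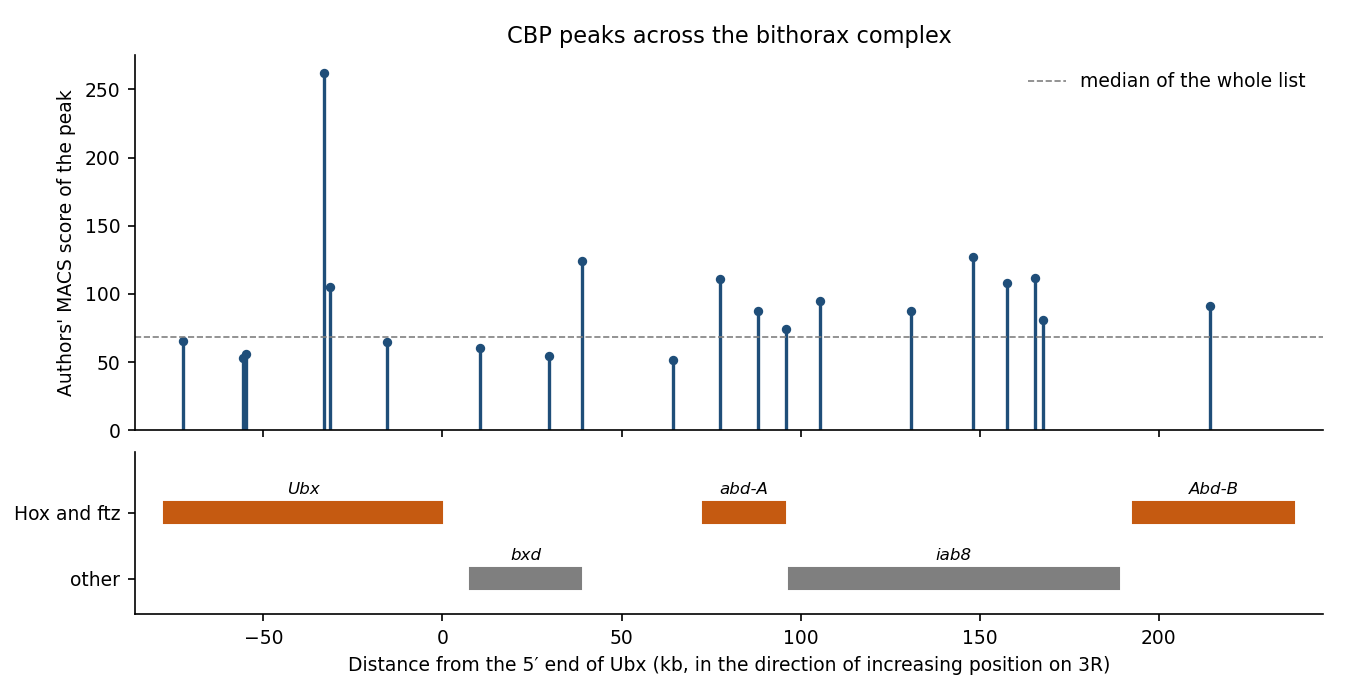
Upper panel: the 20 CBP peaks of the bithorax complex, each as a line at its centre whose height is the authors' MACS score, with the median of the whole list (68.22) dashed. Lower panel: spans of the Hox genes (orange) and of the non-coding genes lncRNA:bxd and lncRNA:iab8 (grey). The horizontal axis is the distance from the 5′ end of Ubx in kb. The tallest line, 262.07, stands inside Ubx, and the 7 peaks between abd-A and Abd-B lie above the dashed line.

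Scores ranged more widely in the Antennapedia than in the bithorax complex. The Antennapedia complex held both the highest score, 345.18, and many low ones, with a median of 64.24 and 13 of 28 peaks under 60. The bithorax complex had a median of 87.315 and 4 of 20 peaks under 60. Scores of 100 or more were held by 9 peaks of the Antennapedia complex (32.1%, exact binomial 95% interval 15.9 to 52.4) and 7 of the bithorax complex (35%, 15.4 to 59.2), so these shares cannot be told apart at this number of peaks. Scores at or above the median of the list were held by 13 of 28 and 13 of 20 peaks (46.4% and 65%), against a background of 46.6% of the other peaks of 3R. For scores of 100 or more, the share over both complexes was 33.3% (20.4 to 48.4), against a background of 14.4% (10.7 to 18.8) among the 313 other peaks of 3R. Of these 16 stronger peaks, 6 lay within a Hox gene or ftz and 10 outside them. The spans of the 9 genes made up 49.1% of both windows and held 22 of the 48 peaks (45.8%). A further 20 peaks lay in another annotated gene, coding or non-coding, and 6 (12.5%) in no annotated gene.

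**Figure D3:**
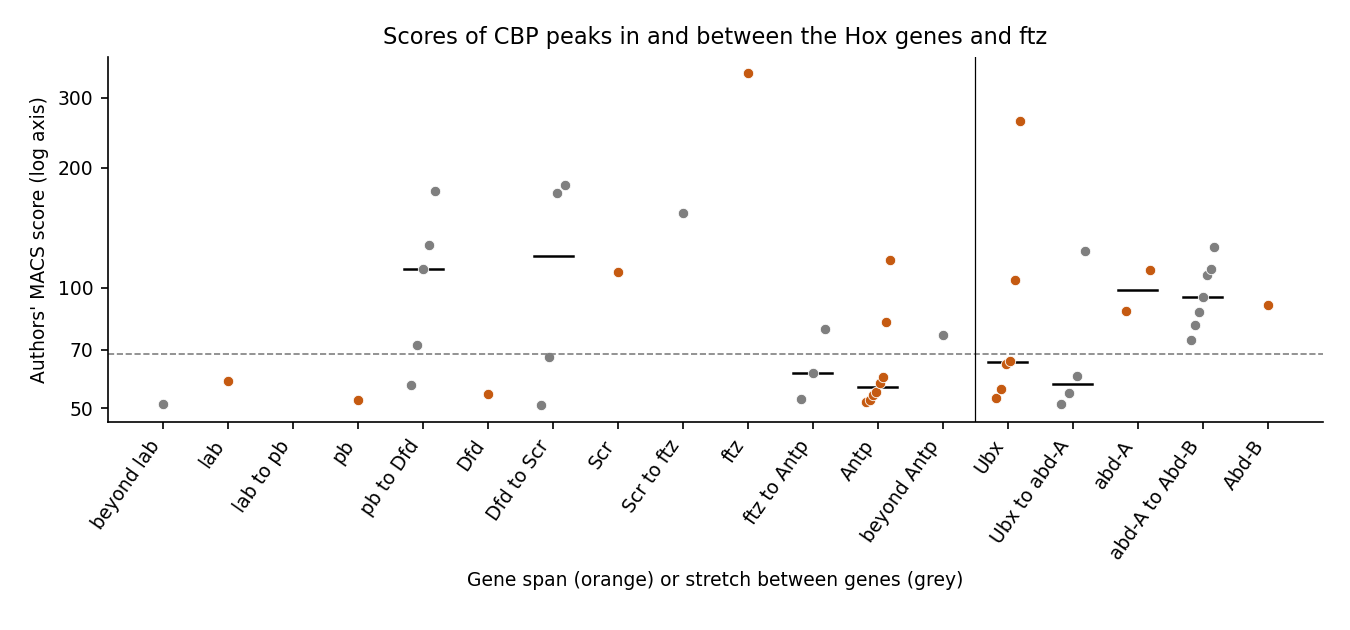
Authors' MACS score, on a log axis, of each of the 48 CBP peaks, by the gene span (orange) or the stretch between or beyond genes (grey) in which it lay, in chromosomal order. Black bars are medians where there were several peaks, the dashed line is the median of the whole list (68.22), and the vertical line separates the Antennapedia complex (left) from the bithorax complex (right). ftz and Ubx hold the highest points, and the stretch from lab to pb holds none.

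Peaks within a Hox gene or ftz were found at 9 of 9 genes, for Dfd by an uncertain overlap of 75 bp. The background was 7.94% of the 3387 protein-coding genes of 3R, which include these 9. Their spans are long, with a median of 26.9 kb against 2.10 kb, and a long span meets a peak more easily. Among the 445 genes with a span of at least 10 kb, which include 8 of the 9, the background was 23.1%. Having 2 or more peaks was seen for Antp, Ubx and abd-A, or 3 of the 9, against 1.15% of all and 7.19% of the long genes. For a peak within 500 bp of either end of the span the background was 8.18% of all and 13.9% of the long genes, and 4 of the 9 had one: Dfd, ftz, Antp and abd-A. In these 4 the peak lay at the 5′ end. The scores of these promoter peaks were 54.33, 345.18, 57.68 and 74.1, so a high score marked the promoter of ftz, while those of Dfd and Antp were below the median of the list and that of abd-A was slightly above it.

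The early patterning genes of 3R outside the complexes, such as gap, segment polarity and mesodermal homeobox genes, were set beside the Hox genes and ftz as known developmental loci, whose activity in these embryos was not measured. Of the 19 such genes found in the gene table, 9 held a peak in the span and 5 had one at either end. The background was 7.94% and 8.18% of all protein-coding genes of 3R. Among the 10 listed genes with a span of at least 10 kb, 6 held a peak in the span, against 23.1% of the long genes. The median span of the listed genes was 12.8 kb, against 2.10 kb for 3R. Their highest score in a span was 124.8, in trx, which encodes a trithorax-group regulator of Hox genes. In hb, ems, cnc, lbe and srp the highest score was below the median of the list, from 59.78 to 65.98. In opa, pnr, hth and trx it was above, from 69.15 to 124.8. Of the other 4 genes of the Antennapedia complex, zen, bcd and Ama held a peak in the span and at an end, as far as their uncertain placement allows, and zen2 held none. The protein-coding genes of 3R outside the windows with the most peaks in their spans were hth with 7, and E2f1, lobo, CG46467 and Glut4EF with 4 each. CG46467 and Glut4EF had the same highest and median scores, 82.32 and 67.08, so the 4 peaks counted for each are probably the same ones. hth, which encodes a homeodomain cofactor of Hox proteins, spans 132 kb, and its peaks had a median score of 60.43 and a highest of 110.82, beside 56.305 and 117.67 for Antp. Per 100 kb of span, Antp held 7.81 peaks and hth 5.30. The shorter E2f1 and lobo held more, 9.86 and 16.5, and their peaks had higher median scores of 93.09 and 81.285.

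CBP peaks were dense over both complexes. The Antennapedia window held 7.78 peaks per 100 kb and the bithorax window 6.06, against 1.16 over the rest of 3R, which gives ratios of 6.68 and 5.21. The windows made up 2.50% of 3R, taken from its first base to the end of its last peak. Peaks covered 5.25% of the bases of the Antennapedia window and 3.92% of the bithorax window, against 0.808% of the rest of the arm. When 3R was divided into 76 tiles of 360 kb, the median tile held 4 peaks. The count of 28 in the Antennapedia window was reached by 1.32% of tiles, that is by 1 tile. This tile itself lies over most of the complex, without matching its window exactly. The count of 20 in the bithorax window was reached by the same 1.32%, and the next fullest tile held 14. Tile borders cut through both complexes. The 2 tiles of the Antennapedia complex held 6 and 28 peaks, and the 2 of the bithorax complex held 11 and 13. The fullest stretch of equal length away from both windows, between 628943 and 988943, held 20 peaks. The bithorax complex was therefore equalled elsewhere on the arm, also over its own length of 330 kb, while the Antennapedia complex was not. The nearest listed peaks outside the windows lay 247 kb before and 22.7 kb after the Antennapedia window, with scores of 61.34 and 137.63. Those around the bithorax window lay 10.3 kb before and 77.3 kb after it, with scores of 52.18 and 59.41. The outermost peak of the Antennapedia window, from 2482870 to 2483347 with a score of 51.15, lay at CG1307, beyond lab.

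**Figure D4:**
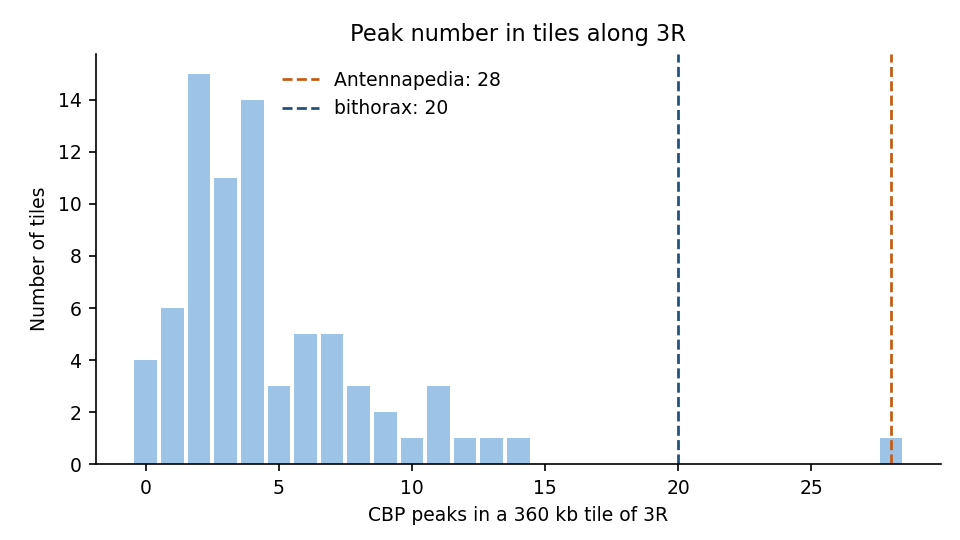
Number of CBP peaks (horizontal axis) in 76 tiles of 360 kb along 3R, as a count of tiles (vertical axis), with dashed lines at the peak numbers of the Antennapedia window (28) and the bithorax window (20, over 330 kb). The single tile at 28 lies over most of the Antennapedia complex, and the next fullest tile holds 14.

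Many peaks of the Antennapedia complex lay in groups. Another peak stood within 5 kb for 19 of its 28 peaks, or 67.9% (95% interval 47.6 to 84.1). The background among the other peaks of 3R was 33.2% (28.0 to 38.7). They formed 6 groups, of which 4 had 3 or more peaks: at zen, bcd and Ama (5 peaks), between Dfd and Scr (3), at ftz (3) and at the 5′ end of Antp (4). In the bithorax complex 6 of 20 peaks had such a neighbour (30%, 11.9 to 54.3), as 3 pairs, and this interval includes the background and overlaps that of the Antennapedia complex. The median gap between neighbouring peaks was 5.35 kb in the Antennapedia complex and 12.6 kb in the bithorax complex, and 25.9 kb over 3R. A higher density of peaks by itself brings neighbours closer. The windows held 7.78 (Antennapedia) and 6.06 (bithorax) peaks per 100 kb, against 1.16 over the rest of 3R. How much of the shares with a neighbour this accounts for was not tested.

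Few peaks of the complexes lay at gene ends. Of the 48 peaks, 8 were within 500 bp of an end of a protein-coding gene (16.7%, exact binomial 95% interval 7.48 to 30.2), against a background of 55% (49.3 to 60.6) of the other peaks of 3R. Gene ends were scarcer in the complexes, where 8.77% of bases lay within 500 bp of one, against 17.8% over the rest of the arm, and how much of the difference this accounts for was not tested. Peaks in the span of a protein-coding gene numbered 31 of 48 (64.6%, 49.5 to 77.8), against 82.1% (77.4 to 86.2) elsewhere on 3R. Such spans covered 63.4% of the bases of the complexes and 71.0% of the rest of the arm. In the bithorax complex 4 of these peaks owed their place to MSAmiP, a protein-coding gene annotated within the stretch between abd-A and Abd-B, and 9 of 20 lay in such a span without it.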

How the data were processed

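The labels used here list 1 CBP ChIP-seq sample and 1 input sample of embryos, crosslinked in 1.8% formaldehyde per the labels' protocols. Peaks were called with MACS, per the file headers, and each deposited peak carries the authors' score. Bowtie and BDGP5 are named in the submitters' processing notes. The sources used here do not give the MACS version, its thresholds, or whether the input was used and replicates pooled.

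Positions count from 1. The spans of ftz, Antp, Ubx, abd-A and Abd-B on BDGP5 came with the definition of the 2 windows. The other genes were placed from a RefSeq gene table of Release 6 by the constant difference of 4174278 bp given there for 3R, used for overlaps and distances only. At the 5 genes with both spans, 7 of 10 ends were equal and the largest difference was 602 bp; elsewhere on 3R it was not checked. The table gives no strand, so background counts use either end of a span, and the 5′ ends of the 9 genes follow their known direction of transcription. Alternative promoters inside a span were not placed. Of 20 early patterning genes listed, 19 were in the table.

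A peak counted as inside with 1 base of overlap. The named peaks were the 5 highest of each complex, those within 500 bp of a 5′ end and those in the spans of the 9 genes; others are given for context and were chosen after their values were seen. The genes, lists and measures were chosen with earlier results of these data known. Overlap, spacing and tile functions were checked on simulated data. Python 3.11.15, numpy 2.4.6, scipy 1.17.1 and matplotlib 3.10.9 were used. Motif content of promoters was not analysed here.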

Additional observations from a re-analysis of the deposited data

How the results depend on the processing

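No paired analysis was possible because the samples are a single ChIP and its input, which also leaves no replicate to omit. Among 62 alternative values, 43 were within a factor of 1.5 of the reported one or, for a median, inside its 95% interval. When peaks scoring below the list median were dropped, the Antennapedia complex held 13 of its 28 peaks and the bithorax complex 13 of its 20, members with a peak at the 5′ end or at either end numbered 2 (ftz and abd-A) in place of 4, and 13 of 26 peaks of both complexes (50%) had a neighbour within 5 kb, in place of 25 of 48 (52.1%), against 21.2% in place of 33.2% of the other peaks of 3R. Antp then held 2 peaks in place of 8 and Ubx 2 in place of 6. At a score of at least 100, 9 and 7 peaks were left. These smaller counts follow from the filter itself. Members with a peak in the span numbered 6 of 9 at the list median, where lab, pb and Dfd had none. At that setting 141 of the 3387 protein-coding genes of 3R held one. With the peak's midpoint the members numbered 7, which left out Dfd and ftz. The background is not given here for the midpoint, nor for gene ends at the list median. The ratio of density to the rest of 3R stayed between 6.42 and 6.68 for the Antennapedia complex and between 4.85 (covered bases) and 7.25 (list median) for the bithorax complex, against 5.21. The share of tiles at least as dense as the bithorax window, 1.32%, was 2.91% with tiles of 100 kb and 0% at the list median. This measure compares peaks per kb, since the bithorax window is shorter than a tile of 360 kb. Tiles moved by 180 kb, chosen after seeing the data, were compared by number of peaks and not by density. They gave 2.63% for the bithorax and 0% for the Antennapedia count. The 2 moved tiles that reached the bithorax count held 22 and 21 peaks. The fullest stretch away from both windows held 20, so each of these tiles overlapped a window. Such a tile can also hold peaks from outside the window, and these were not counted apart. For the Antennapedia count, a moved border cut through the complex. The list ends at a score of 50.02, so that a gene end without a peak may carry weaker binding. The motif analysis was not run.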
